A study of Drosophila melanogaster with 8 samples.

Results

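Cultured Drosophila melanogaster L57 cells exposed to 1 µM juvenile hormone III (JH III) for 3 h were compared with cells given the solvent DMSO. The comparison rests on 4 of the 8 arrays of the study, 2 of the DMSO group and 2 of the 3 h group, chosen by the treatment and time in the source labels. The other 4 arrays came from 6 h and 12 h of the same dose, and they entered the same model to share its estimate of the spread. All cells were kept in HyQ CCM3 medium with fetal bovine serum. The DMSO cells were listed as 0 h, so they were not matched in time to the 3 h of exposure, and effects of time in culture cannot be told apart from those of the hormone. The source label of 1 DMSO array names embryos, while its growth protocol describes the same cultured line as for the other arrays. The labels do not say that the arrays of a group came from separate cultures, so p-values measure the spread between these arrays, which may be technical. L57 is named without a tissue of origin, and no genotype is given. The study set out to find genes that respond to JH III and a DNA element near them, and the 3 h arrays are its earliest time under the hormone.

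Juvenile hormone is a sesquiterpenoid that insects make in the corpora allata. It keeps larval characters through molts and later governs reproduction. In Drosophila it binds the related bHLH-PAS proteins Methoprene-tolerant (Met) and Germ cell-expressed (gce), which act with the coactivator Taiman (tai) and are known to switch on Kr-h1, a zinc finger repressor of metamorphosis. The steroid hormone ecdysone, acting through EcR and usp, drives the molts that juvenile hormone qualifies, and broad (br) is an early gene of that response.

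Each array gave 1 MAS5 signal per probe set, and changes are differences of log2(signal + 25.0) between group means with the standard error (SE) of the model. A probe set rose or fell where the p-value adjusted over all 8380 probe sets tested was under 0.05. Median signal over the probe sets readable on every array was 70.9 and 72.9 on the DMSO arrays and 85.1 and 81.8 on the 3 h arrays, while the trimmed mean was 500.1 on each of them. Centring every array on its median therefore moved the median change over all genes from 0.01 to -0.15, and changes below are relative to the authors' scaling. The 3' to 5' signal ratio of the control transcripts, a sign of RNA integrity, lay higher at 3 h than under DMSO by 0.19 on the log2 scale for actin and by 0.29 for eIF-4a, and differed by -0.02 for Gapdh. The actin difference lay mostly on 3 h replicate 1: the ratio was 0.20 and -0.06 at 3 h, and -0.15 and -0.08 under DMSO. For 18S rRNA the ratio was 0.52 higher, with replicates of each group further apart than the group means. The hybridization controls lay 0.14 higher. Their part in the results was not tested. Correlation across probe sets was 0.980 between the DMSO arrays, 0.977 between the 3 h arrays and 0.969 to 0.972 between the groups.

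Markers of several cell types passed the filter on low signal, which is a percentile cut and no call of detection. Of all 13966 probe sets that are not array controls 8380 passed it. Of 27 hemocyte markers on the array 17 passed, against 2 of 15 neuronal, 2 of 8 glial, 5 of 14 muscle, 8 of 12 fat body and 7 of 18 germline markers. The hemocyte and fat body shares lay near that of all probe sets, and the others below it. Hml, the gene for the blood cell clotting protein hemolectin, was bright on every array, while signals of NimC1, a plasmatocyte receptor, were 4.36 to 8.07 on the 4 arrays and those of lz, the crystal cell factor, 3.55 to 12.6. Signals of the neuronal gene elav lay between 5.99 and 41.4 and those of the germline gene vas between 2.68 and 23.8. As in any bulk measurement, fewer cells of a type and less RNA per cell cannot be told apart.

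At 3 h 888 of the 8380 probe sets rose, which is 10.6%, and 684 fell, which is 8.16%, so 18.8% changed in all. By gene, each with its brightest probe set, 680 of 6865 rose (9.91%) and 604 fell (8.8%). By the authors' scaling the rises were the larger changes. Their median was 0.66 on the log2 scale, against 0.46 for the size of the falls, and 173 rises but 23 falls reached 2-fold. In every called probe set both 3 h arrays lay on one side of both DMSO arrays, as they did above in 33% and below in 29% of all genes. The balance of rises and falls depended on the scaling, with 507 and 1413 after median centring, and all 684 falls were still called then. Their sizes depended on it too, as centring moved the median change over all genes from 0.01 to -0.15. That makes rises smaller and falls larger. Precision is limited by 2 arrays per group: leaving out any 1 of the 4 arrays left between 581 and 798 calls, and 274 rises and 172 falls passed in all 4 of these fits. Genes named below as risen or fallen passed, on the probe set whose values are given first, under every alternative tried unless a lost call is given with them.

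Among the largest rises, lncRNA:CR42862, a long non-coding RNA gene, had signals of 229 and 229 under DMSO and 1284 and 1046 after 3 h. It rose 4.67-fold (log2 change 2.22, SE 0.12, adjusted p = 6.66e-05), and its second probe set gave 1.57 (adjusted p = 0.000482). The 3 h arrays lay far above the almost equal DMSO arrays. bun, which encodes a transcriptional regulator of the TSC22 family, gave 255 and 217 under DMSO and 837 and 854 after 3 h (log2 change 1.74, SE 0.12, adjusted p = 9.59e-05). Atg10, an enzyme that helps join Atg12 to Atg5 in autophagosome formation, gave 50.6 and 122 under DMSO and 429 and 369 after 3 h (log2 change 2.01, SE 0.30, adjusted p = 0.00254). Both 3 h arrays of each exceeded the higher DMSO array, as in every called rise. Pkc98E, a protein kinase C, had 38.1 and 30 under DMSO and 178 and 323 after 3 h on 1 probe set (log2 change 2.17, SE 0.31, adjusted p = 0.00187), so that the 2 arrays at 3 h themselves differed widely. Its brighter probe set rose by 0.91 (adjusted p = 0.021; up to 0.143 leaving out either DMSO array or 3 h replicate 1, 0.0522 without the variance trend). The testis transcription factor gene topi gave 53.9 and 22.6 under DMSO and 206 and 230.4 after 3 h (log2 change 1.99, SE 0.36, adjusted p = 0.00603), and ps, an RNA-binding splicing regulator, 22.9 and 18.7 under DMSO and 139.8 and 149 after 3 h (log2 change 1.89, SE 0.31, adjusted p = 0.00382; its other probe set gave 0.48 (adjusted p = 0.101)). The DMSO signals of these last 3 lay below 61.5, the lowest mean over the arrays that was tested, so they passed the filter through arrays where they were brighter, and their changes start from dim values.

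The other members of the 12 largest rises depended more on single arrays. CG2519 rose by 1.74 (adjusted p = 0.00719; 0.0708 leaving out 3 h replicate 1) and the methuselah-like receptor gene mthl4 by 1.65 (adjusted p = 0.00916; 0.0601 leaving out 3 h replicate 2). CG43367, TMEM216, scrib and bon rose by 2.17, 2.14, 2.02 and 1.93 (adjusted p = 0.00827, 0.0145, 0.00926 and 0.0164). Of these 4, TMEM216 lost its call without DMSO replicate 2 or either 3 h array (up to 0.0984), bon without any 1 of the 4 arrays (up to 0.115), CG43367 without replicate 1 of either group (up to 0.0739) and scrib without DMSO replicate 2 or 3 h replicate 1 (up to 0.0746). The DMSO signals of CG2519, CG43367, scrib and bon likewise lay below the filter's 61.5, so their changes too start from dim values. CG43367, TMEM216, scrib and bon have a brighter probe set, and those gave smaller changes: 0.75 for scrib, the cell polarity scaffold Scribble, 0.65 for TMEM216, 0.43 for bon and 0.33 for CG43367.

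PCB, which encodes the pyruvate carboxylase that refills the citric acid cycle, had the largest fall. Its signals were 1966 and 2049 under DMSO and 511 and 401 after 3 h, a drop of 2.09 on the log2 scale (SE 0.19, adjusted p = 0.000368), and the groups lay far apart. ND-B12 of respiratory complex I gave 3943 and 3313 under DMSO and 1711 and 1514 after 3 h (log2 change -1.15, SE 0.10, adjusted p = 0.000288). GstE13, a glutathione transferase, gave 3394 and 3167 under DMSO and 1201 and 1665 after 3 h (log2 change -1.20, SE 0.14, adjusted p = 0.00113), and CG5254 3289.5 and 3401 under DMSO and 1383 and 1488 after 3 h (log2 change -1.21, SE 0.09, adjusted p = 0.000118). The groups lay far apart in all 3. CG32687 gave 142 and 132 under DMSO and 23.6 and 18.9 after 3 h (log2 change -1.81, SE 0.29, adjusted p = 0.00338; its other probe set gave -1.10 (adjusted p = 0.136)). Pex5, the import receptor of peroxisomes, fell by 1.27 (adjusted p = 0.0125; up to 0.107 leaving out DMSO replicate 2 or either 3 h array). CG11368, AANATL2, prd, CG10205 and Hecw fell by 1.98, 1.57, 1.44, 1.41 and 1.14, from dim DMSO signals. At 3 h the signals of CG32687, CG11368, AANATL2, prd and Hecw lay below 61.5, so their changes end at dim values. CG11368, AANATL2, prd, CG10205 and Hecw each lost the call without 1 array: the adjusted p rose to 0.115, 0.146, 0.212, 0.237 and 0.22. AANATL2, prd and Hecw lost it without any 1 of the 4 arrays, CG11368 without either DMSO array or 3 h replicate 1, and CG10205 without either DMSO array or 3 h replicate 2.

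**Figure D1:**
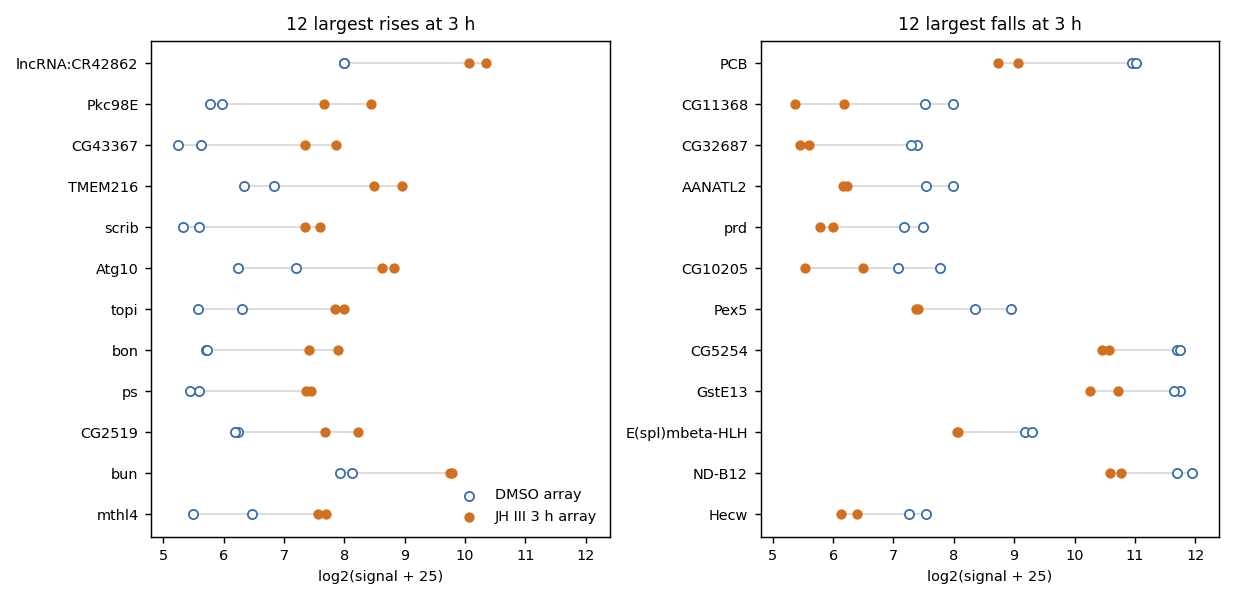
log2(signal + 25.0) of the 12 largest rises (left) and 12 largest falls (right) at 3 h, 1 row per gene; open circles are the 2 DMSO arrays and filled circles the 2 arrays at 3 h, joined by a grey line. The circles of the groups do not overlap in any row, which the choice of these genes required. Replicates of bun lie close together (255 and 217, then 837 and 854), while those of CG10205 spread from 109 to 192 under DMSO.

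The changes with the smallest p outside these 24 were of bright probe sets. pAbp, the poly(A)-binding protein, gave 6203 and 6239 under DMSO and 16950.0 and 15308 after 3 h, a rise of 2.58-fold (log2 change 1.37, SE 0.08, adjusted p = 6.66e-05; its other probe set gave 0.78 (adjusted p = 0.000333)). rin, the fly homologue of the stress granule protein G3BP, gave 2763 and 2691 under DMSO and 5892 and 6040.3 after 3 h (log2 change 1.12, SE 0.07, adjusted p = 9.59e-05). akirin, a nuclear cofactor of immune gene transcription, gave 2544 and 2201 under DMSO and 5460.4 and 5522 after 3 h (log2 change 1.21, SE 0.09, adjusted p = 0.000316). In each the lower 3 h array was above the higher DMSO array by at least 2-fold. MSBP, a membrane protein that binds ecdysone, rose by 1.33 on 1 probe set (adjusted p = 9.53e-05), while the other gave 0.44 (adjusted p = 0.089). mrj, a DnaJ-type cochaperone, rose by 1.58 (adjusted p = 0.000288), and drn, CG8301 and CG18213 rose by 1.36, 1.59 and 1.48. Sirup, an assembly factor of respiratory complex II, rose by 0.94 and dpr3, an immunoglobulin-family surface protein gene, by 1.05. Among the falls with the smallest p, Rae1, an mRNA export factor, gave 4911 and 5224 under DMSO and 2912 and 3096 after 3 h (log2 change -0.75, SE 0.07, adjusted p = 0.000544). JMJD6 of the jumonji family, stc, a homologue of the transcription factor NFX1, and the F-box gene fsd fell by 1.07, 0.71 and 0.91. The groups did not overlap in any of them, as in every called probe set.

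Of the genes of juvenile hormone reception and response, 12 of the 16 listed were on the array and tested. At 3 h 3 of the 12 rose, and none fell by limma (1 at an unadjusted p under 0.05), beside 9.91% and 8.8% of all genes, and the median change was 0.18 against 0.01 for all genes. JhI-26, known from its induction by juvenile hormone in fly cells, gave 573 and 587 under DMSO and 961 and 892 after 3 h (log2 change 0.65, SE 0.10, adjusted p = 0.00338). Its groups did not overlap, and it was the 1 of the 3 that passed without any single array. br, the early ecdysone gene, gave 67 and 67.3 under DMSO and 165 and 192 after 3 h on its brightest probe set (log2 change 1.14, SE 0.25, adjusted p = 0.0178; up to 0.114 leaving out any 1 of the 4 arrays). Its 2 other probe sets gave 0.25 (adjusted p = 0.699) and 0.23 (adjusted p = 0.704), so the rise of br rests on 1 of 3 probe sets. The nuclear pore gene Nup358, named in fly work on juvenile hormone nuclear import, gave 581 and 649 under DMSO and 1066 and 832 after 3 h (log2 change 0.60, SE 0.14, adjusted p = 0.0199; up to 0.126 leaving out either DMSO array or 3 h replicate 1, 0.0721 without the variance trend).

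The receptors themselves did not pass the threshold. Met gave 105 and 36.3 under DMSO and 115 and 33.9 after 3 h, with replicates of each group further apart than the group means (log2 change 0.02, SE 0.48, adjusted p = 0.983). gce gave 269 and 214 under DMSO and 379 and 359.7 after 3 h and lay above DMSO on both arrays (log2 change 0.58, SE 0.18, adjusted p = 0.0559). tai gave -0.05 and usp 0.06 (adjusted p = 0.909 and 0.900). Kr-h1, known as the main early target of the receptor, gave 192 and 193 under DMSO and 96.6 and 139 after 3 h: its estimate was below DMSO and did not pass the threshold (log2 change -0.62, SE 0.27, adjusted p = 0.147). ftz-f1, a nuclear receptor tied to both hormones, gave 73.3 and 78.8 under DMSO and 130.5 and 114 after 3 h (log2 change 0.54, SE 0.33, adjusted p = 0.307). The importin Fs(2)Ket gave 0.29 (adjusted p = 0.137), the amino acid transporter JhI-21 gave 0.08 (0.789) and the immunophilin Fkbp39 gave 0.01 (0.947). Chd64, Hsp83, Eip75B and Src42A were not analysed here. Of the 5 tested genes of hormone synthesis and turnover none passed the threshold by limma (2 at an unadjusted p under 0.05), and Cyp6g2, a cytochrome P450 gene, varied most with 236 and 36.6 under DMSO and 159.6 and 294 after 3 h (log2 change 0.94, SE 0.56, adjusted p = 0.292).

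Of 9 ecdysone-responsive genes tested, 6 rose, with a median of 0.57, and none fell by limma (0 at an unadjusted p under 0.05). With median centring 3 rose. The list counts br among the 6, and all but ImpL2 lost the call without at least 1 of the 4 arrays, with adjusted p up to 0.149. ImpL2, induced by ecdysone in discs and known as a secreted binder of insulin-like peptides, gave 1606 and 1629.6 under DMSO and 2838 and 2812 after 3 h (log2 change 0.79, SE 0.09, adjusted p = 0.00107). The nuclear receptor Hr39 gave 119.6 and 97.1 under DMSO and 262 and 239.8 after 3 h (log2 change 1.05, SE 0.22, adjusted p = 0.0137; up to 0.0953 leaving out DMSO replicate 2 or either 3 h array). Eip78C was at 92.6 and 78.1 under DMSO and 131 and 146 after 3 h (log2 change 0.57, SE 0.29, adjusted p = 0.214). EcR itself was too dim to test: its 2 probe sets gave 27.0 and 77.9, and 10.5 and 6.93, on the DMSO arrays, and 129 and 29.6, and 10.4 and 24.9, on the 3 h arrays. The 3 h and DMSO arrays overlapped on its brighter probe set.

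Several signalling lists held shares of rises above the 9.91% of all genes. In the ERK and JNK pathways, with the genes that feed back on them, 10 of 26 rose (median 0.35; 6 with median centring), and none fell by limma (0 at an unadjusted p under 0.05). The epidermal growth factor ligand spi gave 3845 and 3959 under DMSO and 7449 and 6458 after 3 h (log2 change 0.83, SE 0.08, adjusted p = 0.00037), and sty, sprouty, which restrains the receptors such ligands act on, gave 4514 and 3827 under DMSO and 10079 and 10652 after 3 h (log2 change 1.31, SE 0.08, adjusted p = 9.03e-05). aop, the ETS-domain repressor that ERK inactivates, gave 733 and 679.9 under DMSO and 1407 and 1268 after 3 h (log2 change 0.90, SE 0.11, adjusted p = 0.00101). A ligand, an inhibitor and a downstream repressor of 1 pathway were thus all among the rises. msn, the kinase at the head of the JNK cascade, rose from 538 and 504 to 1419 and 1482 (log2 change 1.44, SE 0.14, adjusted p = 0.000422), and the ligand gene Pvf2 from 624 and 622 to 1155 and 1024 (log2 change 0.78, SE 0.11, adjusted p = 0.00214). The JNK gene bsk rose by 0.46 (adjusted p = 0.0419; up to 0.242 without any 1 of the 4 arrays, 0.159 with median centring) and kay, the fly Fos, by 0.75 (adjusted p = 0.00998; up to 0.0699 leaving out DMSO replicate 1 or 3 h replicate 1). puc, the phosphatase gene that JNK signalling induces, was at 926 and 822 under DMSO and 939.8 and 881 after 3 h (log2 change 0.06, SE 0.11, adjusted p = 0.774), and the receptor gene Egfr gave -0.21 (adjusted p = 0.658). Leaving out any 1 of the 4 arrays lost 3 to 5 of the 10 rises, and the 5 kept in all were msn, sty, aop, spi and Pvf2.

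In the insulin and TOR pathway 11 of 20 genes rose (median 0.45; 7 with median centring), and none fell by limma (0 at an unadjusted p under 0.05). ImpL2 was the only 1 of them to pass without each array in turn, and any 1 of the 4 arrays carried the call of 6 to 8 of the 11, with adjusted p up to 0.221. InR, the insulin receptor, gave 149.8 and 182 under DMSO and 409 and 404 after 3 h (log2 change 1.18, SE 0.25, adjusted p = 0.0112; up to 0.0736 leaving out DMSO replicate 1 or either 3 h array). Downstream, Pdk1 rose by 0.76, Akt by 0.62 and S6k, the ribosomal protein S6 kinase, by 0.62 (adjusted p = 0.0104, 0.0129 and 0.00841; up to 0.0749, 0.0977 and 0.0672 without 1 DMSO or 3 h array). scyl, an inhibitor of TOR, gave 211 and 183 under DMSO and 511 and 500.0 after 3 h (log2 change 1.26, SE 0.22, adjusted p = 0.00623; 0.0502 leaving out DMSO replicate 2). The receptor, its kinases and its inhibitors moved in 1 direction. mTor gave 0.07 and foxo, the transcription factor that insulin signalling holds back, 0.34 (adjusted p = 0.800 and 0.641).

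Of 19 genes of protein kinase C, calcium and G protein signalling 10 rose (median 0.46), and none fell by limma (1 at an unadjusted p under 0.05). With median centring 7 rose and 1 fell, and 1 also fell after cyclic loess and after quantile normalization. rut, the calcium-responsive adenylyl cyclase, gave 4309 and 5419 under DMSO and 9399 and 10209 after 3 h (log2 change 1.02, SE 0.11, adjusted p = 0.000765; its other probe set 0.86 (adjusted p = 0.0122)). Galphao, a G protein subunit, gave 253 and 262 under DMSO and 647 and 519.9 after 3 h (log2 change 1.10, SE 0.16, adjusted p = 0.00225), although its other probe set gave 0.51 (adjusted p = 0.404). CanB2, the regulatory subunit of calcineurin, gave 1132 and 1126 under DMSO and 1844 and 1802 after 3 h (log2 change 0.68, SE 0.08, adjusted p = 0.00107). These 3 kept their call without any single array. Stim and Orai, which sense calcium stores and admit calcium, rose by 0.53 and 0.46 (adjusted p = 0.00723 and 0.0232; up to 0.0553 and 0.139 without 1 DMSO or 3 h array, and 0.104 for Orai with median centring). The store release channel gene Itpr gave 0.65 (adjusted p = 0.192).

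Notch pathway genes moved in both directions. The coactivator gene mam gave 1996 and 2378 under DMSO and 4900.4 and 5938 after 3 h (log2 change 1.30, SE 0.12, adjusted p = 0.000368; its other probe set gave 0.31 (adjusted p = 0.695)). kuz, the protease that cuts the Notch receptor, gave 249.7 and 253 under DMSO and 539.7 and 781 after 3 h (log2 change 1.29, SE 0.18, adjusted p = 0.00233), and gro, the corepressor of the E(spl) proteins, 1889 and 1847 under DMSO and 2715 and 2615 after 3 h (log2 change 0.51, SE 0.07, adjusted p = 0.00239). The 3 lay above DMSO on both arrays, as every called rise did. E(spl)mbeta-HLH, a repressor gene that Notch signalling switches on, gave 553 and 601 under DMSO and 244 and 239.9 after 3 h (log2 change -1.17, SE 0.13, adjusted p = 0.000784). E(spl)m3-HLH fell with it (log2 change -1.04, SE 0.31, adjusted p = 0.0469; up to 0.259 leaving out either DMSO array or 3 h replicate 1, 0.0747 on the DMSO and 3 h arrays alone, 0.0989 without the filter, 0.0657 without the variance trend, 0.0534 on the probe sets readable on all 8 arrays, 0.0581 without the partly unreadable 6 h array). In all 4 of the 11 genes rose and 2 fell (3 and 3 with median centring). Elsewhere Stat92E, the transcription factor of the JAK-STAT pathway, gave 1589 and 1402 under DMSO and 2562 and 2559 after 3 h (log2 change 0.77, SE 0.11, adjusted p = 0.00176; its other probe set gave 0.12 (adjusted p = 0.64)), and 3 of 9 genes of that pathway rose. The other 2, Socs16D and ken, lost the call leaving out any 1 of the 4 arrays and with median centring, cyclic loess or quantile normalization, where 1 rise was left. Axn, the scaffold that holds back Wnt signalling, gave 182 and 172 under DMSO and 479 and 443 after 3 h (log2 change 1.27, SE 0.16, adjusted p = 0.00154) and was the 1 rise among 15 genes of the Wnt, Hedgehog and TGF-beta pathways, whose median of 0.14 turned to -0.02 with median centring. Pdp1, an activator in the circadian clock, gave 300.2 and 292 under DMSO and 879 and 777 after 3 h (log2 change 1.41, SE 0.13, adjusted p = 0.00056).

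Basement membrane and matrix genes rose in 11 of 15, or 73.3%, and SPARC fell. With median centring 7 rose, and 7 of the 11 rises held without each array in turn. LanA, a laminin subunit, gave 2179.9 and 2132 under DMSO and 3302 and 3291 after 3 h (log2 change 0.61, SE 0.09, adjusted p = 0.00324), and LanB1 1295 and 1206 under DMSO and 1850.4 and 1897 after 3 h (log2 change 0.57, SE 0.08, adjusted p = 0.0022). Their partner LanB2 rose by 0.31 (adjusted p = 0.0218; up to 0.136 without any 1 of the 4 arrays, 0.223 with median centring). vkg, a collagen IV chain, gave 2369 and 2339 under DMSO and 3408 and 3196 after 3 h (log2 change 0.48, SE 0.08, adjusted p = 0.00434), and Plod, an enzyme that hydroxylates collagen, 4795 and 4695 under DMSO and 6334 and 6176 after 3 h (log2 change 0.40, SE 0.06, adjusted p = 0.00382; 0.0564 without the variance trend). The other collagen IV chain, Col4a1, rose by 0.43 (adjusted p = 0.0115; up to 0.0746 without any 1 of the 4 arrays, 0.0755 with median centring). Ppn, papilin, gave 1402 and 1191 under DMSO and 2466 and 2454 after 3 h (log2 change 0.92, SE 0.09, adjusted p = 0.000482; its other probe set gave 0.49 (adjusted p = 0.414)), and Sdc, the surface proteoglycan syndecan, rose by 0.68 (adjusted p = 0.00346). SPARC, a collagen-binding glycoprotein, fell by 0.23 (adjusted p = 0.039; up to 0.241 without any 1 of the 4 arrays, 0.202 with quantile normalization). In LanA, LanB1, vkg and Plod both 3 h arrays lay above both DMSO arrays, as in every called rise.

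Hemocyte markers rose in 8 of 17 (median 0.31) and fell in none by limma (0 at an unadjusted p under 0.05). With median centring 3 of 17 rose, and 2 of the 8 rises held without each array in turn. Pxn, Tig, Glt and Col4a1 stand in the matrix list too. Hml gave 2116 and 2101 under DMSO and 3815 and 3919 after 3 h (log2 change 0.87, SE 0.06, adjusted p = 0.000135), with close replicates. srp, the GATA factor of blood cell fate, rose by 0.57 (adjusted p = 0.0141; up to 0.101 leaving out either DMSO array or 3 h replicate 1, 0.0697 without the variance trend). The phenoloxidases PPO1, PPO2 and PPO3 of crystal cells and lamellocytes did not pass the threshold. Among genes of actin, adhesion and polarity 11 of 35 rose and 2 fell (median 0.28). With median centring 7 rose, and 3 of the 11 rises held without each array in turn. kst, a heavy spectrin chain, rose on both 3 h arrays (log2 change 1.21, SE 0.16, adjusted p = 0.00211), and Moe, moesin, which ties actin to the membrane, gave 1664 and 1963 under DMSO and 2979 and 2664 after 3 h (log2 change 0.63, SE 0.10, adjusted p = 0.00427). chic, the actin-binding profilin, rose by 0.41 (adjusted p = 0.00286; 0.0538 without the variance trend). The integrin-linked kinase gene Ilk fell by 0.39 and its partner parvin by 0.36 (adjusted p = 0.0345 and 0.0187), and both lost the call without any 1 of the 4 arrays (up to 0.221 and 0.103).

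Splicing regulators and hnRNP genes rose in 12 of 30 and fell in 4 (median 0.23), a balance that turned to 5 rises and 7 falls with median centring. Without each array in turn 3 rises and 1 fall held. Hrb27C, an hnRNP protein, gave 1578 and 1398 under DMSO and 3751 and 4384 after 3 h (log2 change 1.43, SE 0.12, adjusted p = 0.000368), and the groups lay more than 2-fold apart. qkr58E-1 of the quaking-related RNA-binding proteins rose by 0.79 and the splicing factor gene hfp by 0.55 (adjusted p = 0.00341 and 0.00489). The SR protein gene SC35 fell from 8214 and 8692 to 6126 and 6214 (log2 change -0.45, SE 0.07, adjusted p = 0.00267), while its other probe set gave -0.27 (adjusted p = 0.553). In chromatin remodelling, Polycomb and trithorax genes 5 of 38 rose (13.2%) and 2 fell (5.26%), near the 9.91% and 8.8% of all genes. Of these calls 1 held without each array in turn, and the median of 0.16 became 0.00 with median centring. E(bx), the large subunit of the remodelling complex NURF, rose on all 3 of its probe sets, by 0.85 on the brightest (log2 change 0.85, SE 0.13, adjusted p = 0.00253) and by 1.29 and 0.83 on the others (adjusted p = 0.00754 and 0.0458).

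In the cell cycle lists E2f1, the factor that drives entry into S phase, gave 570.5 and 573 under DMSO and 1176 and 1274 after 3 h (log2 change 1.07, SE 0.13, adjusted p = 0.0011), and its target CycE, cyclin E, 416 and 490.0 under DMSO and 870.5 and 778 after 3 h (log2 change 0.83, SE 0.13, adjusted p = 0.00359). The groups did not overlap in either, as in every called probe set. Of all 42 replication genes 3 rose and 5 fell, beside 9.91% and 8.8% of all genes (median -0.06; 2 and 11 with median centring). PCNA gave 9272 and 9773 under DMSO and 9904 and 9609 after 3 h (log2 change 0.04, SE 0.06, adjusted p = 0.754), and Mcm3 of the replicative helicase fell by 0.47 (adjusted p = 0.00542; 0.0536 leaving out DMSO replicate 2). Of 31 mitosis genes 4 rose and 1 fell (12.9% and 3.2%), which turned to 0 and 5 with median centring. Every call among them was lost without at least 1 of the 4 arrays. In the same list cyclin B (CycB) gave 0.05 (adjusted p = 0.691). Genes of the nuclear pore and of transport through it gave 6 rises and 6 falls among 39 (4 and 11 with median centring). Rises and falls were each 15.4% of that list, beside 9.91% and 8.8% of all genes. The exportin gene emb gave 1207 and 1316 under DMSO and 2238 and 2079.8 after 3 h (log2 change 0.76, SE 0.08, adjusted p = 0.000713; its other probe set gave 0.13 (adjusted p = 0.647)), and the import receptor gene Tnpo rose by 0.81 (adjusted p = 0.00427), whereas the pore subunit gene Nup43 fell from 3517 and 3527 to 2112 and 2358 (log2 change -0.65, SE 0.07, adjusted p = 0.000785).

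**Figure D2:**
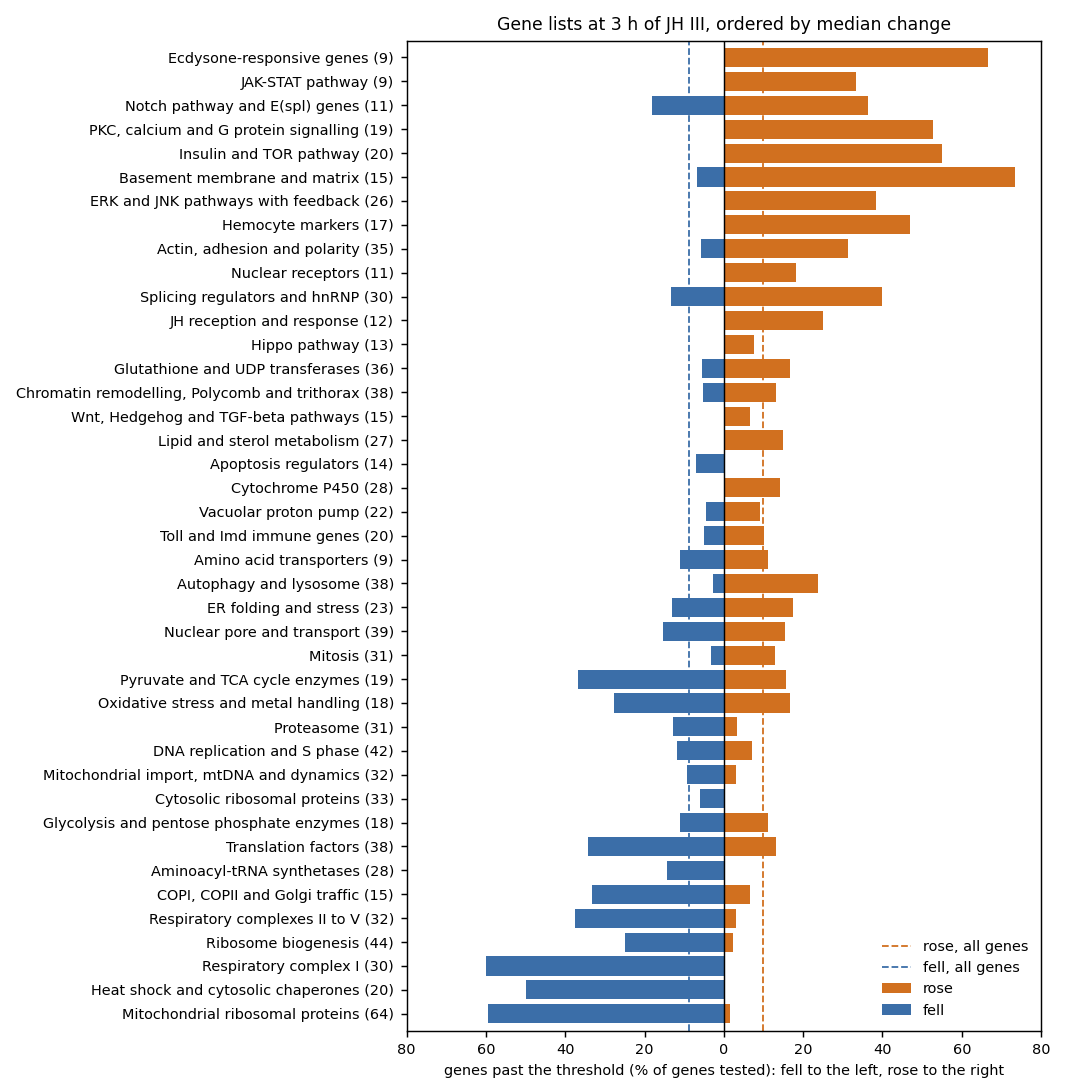
Share of tested genes (%) that rose (orange, to the right) and fell (blue, to the left) at 3 h in the gene lists, with the number tested in brackets and lists ordered by their median change; dashed lines mark the shares over all 6865 genes (9.91% and 8.8%). Lists with the fewest genes tested are not shown: hormone synthesis and turnover, circadian clock, and neuronal, glial, muscle, fat body and germline markers. Basement membrane genes have the longest bar to the right (73.3%), and respiratory complex I (18 of 30 genes) and mitochondrial ribosomal proteins (38 of 64) the longest to the left.

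The mitochondrial lists held many falls. Of 64 nuclear genes for mitochondrial ribosomal proteins, which translate the mitochondrial genome, 38 fell and mRpS11 rose (median -0.34). The estimate was below DMSO in 58 of the 64, in 18 of 21 small subunit and 40 of 43 large subunit genes, and both 3 h arrays lay below both DMSO arrays in 53, a share to be read beside 29% of all genes. The list median by array, relative to the DMSO mean of each gene, was -0.34 and -0.33 on the 3 h arrays. mRpL2 gave 2063 and 1942 under DMSO and 1065 and 1040.5 after 3 h (log2 change -0.91, SE 0.09, adjusted p = 0.000543), mRpL45 2643 and 2669.9 under DMSO and 1639 and 1596 after 3 h (log2 change -0.71, SE 0.07, adjusted p = 0.000482) and mRpS22 1732 and 1726 under DMSO and 1045 and 1106 after 3 h (log2 change -0.67, SE 0.08, adjusted p = 0.0012). In these the replicates of each group lay close together and the groups far apart. mRpL49, mRpS16 and mRpL38 fell by 0.62, 0.54 and 0.51. mRpS11 rose by 0.46 (adjusted p = 0.0112; up to 0.0971 leaving out DMSO replicate 2 or 3 h replicate 2, 0.0667 with median centring, 0.0647 without the variance trend). Of the 38 falls 10 passed without each of the 4 arrays in turn, and leaving out any 1 array lost 20 to 24 of them.

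In respiratory complex I, which passes electrons from NADH to ubiquinone, 18 of 30 genes fell (median -0.27) and none rose by limma (1 at an unadjusted p under 0.05), and 10 of the 18 passed without each array in turn. Besides ND-B12, ND-B18 gave 4784 and 5113 under DMSO and 3285 and 2969 after 3 h (log2 change -0.66, SE 0.08, adjusted p = 0.000951) and ND-19 4466 and 4776 under DMSO and 2809 and 3084 after 3 h (log2 change -0.65, SE 0.07, adjusted p = 0.000785). ND-B14.5B gave 13102 and 13443 under DMSO and 8056 and 9291 after 3 h (log2 change -0.62, SE 0.09, adjusted p = 0.00217), and ND-39, ND-PDSW and ND-SGDH fell by 0.57, 0.56 and 0.48. None of these overlapped between the groups, which holds for every called probe set. The members with the highest estimates, such as ND-20L and ND-24L, are paralogues with wide errors. In complexes II to V 12 of 32 fell and 1 rose (median -0.16). After cyclic loess 8 fell and 2 rose (median -0.07). With median centring 20 fell, and 3 of the 12 falls held without each array in turn. RFeSP, the iron-sulfur protein of complex III, gave 2156 and 2136 under DMSO and 1489 and 1459 after 3 h (log2 change -0.53, SE 0.07, adjusted p = 0.00155), and COX5A of cytochrome oxidase 12351 and 12725 under DMSO and 8886 and 9272 after 3 h (log2 change -0.46, SE 0.06, adjusted p = 0.0012). ATPsynF of the ATP synthase fell by 0.39 (adjusted p = 0.00267). Other subunits missed the threshold: Cyt-c1, the cytochrome of complex III, gave 14662 and 15884 under DMSO and 14849 and 15002 after 3 h (log2 change -0.03, SE 0.07, adjusted p = 0.799), and ATPsynbeta, the catalytic chain, 1480.3 and 1548 under DMSO and 1746 and 1396 after 3 h (log2 change 0.04, SE 0.11, adjusted p = 0.824).

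Among pyruvate and citric acid cycle genes 7 of 19 fell and 3 rose (8 and 1 with median centring), and the median of -0.02 was 0.02 after cyclic loess. With PCB fell Pepck1, the enzyme that turns oxaloacetate into phosphoenolpyruvate, from 3232 and 3354 to 2327 and 2071 (log2 change -0.58, SE 0.08, adjusted p = 0.00156). CG7430, dihydrolipoamide dehydrogenase, a shared subunit of the pyruvate and oxoglutarate dehydrogenases, gave 4492 and 4515 under DMSO and 2915 and 2842 after 3 h (log2 change -0.64, SE 0.06, adjusted p = 0.000785). ScsbetaG, a succinyl-CoA synthetase chain, fell by 0.42 (adjusted p = 0.00409), while its second probe set stood at 0.04 (adjusted p = 0.957). Men-b, a malic enzyme that makes pyruvate, went the other way with 1645 and 1568 under DMSO and 2394 and 2652 after 3 h (log2 change 0.64, SE 0.08, adjusted p = 0.00108; its other probe set 0.59 (adjusted p = 0.00746)). Glycolysis and pentose phosphate genes gave 2 rises and 2 falls among 18 (1 and 7 with median centring), and Pfk, phosphofructokinase, gave -0.42 (adjusted p = 0.177). Mitochondrial import, DNA and dynamics genes gave 1 rise and 3 falls among 32 (median -0.07; 0 and 10 with median centring). Rises were 3.1% and falls 9.4% of that list, beside 9.91% and 8.8% of all genes. In the glycolysis and pentose phosphate list each was 11.1%.

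**Figure D3:**
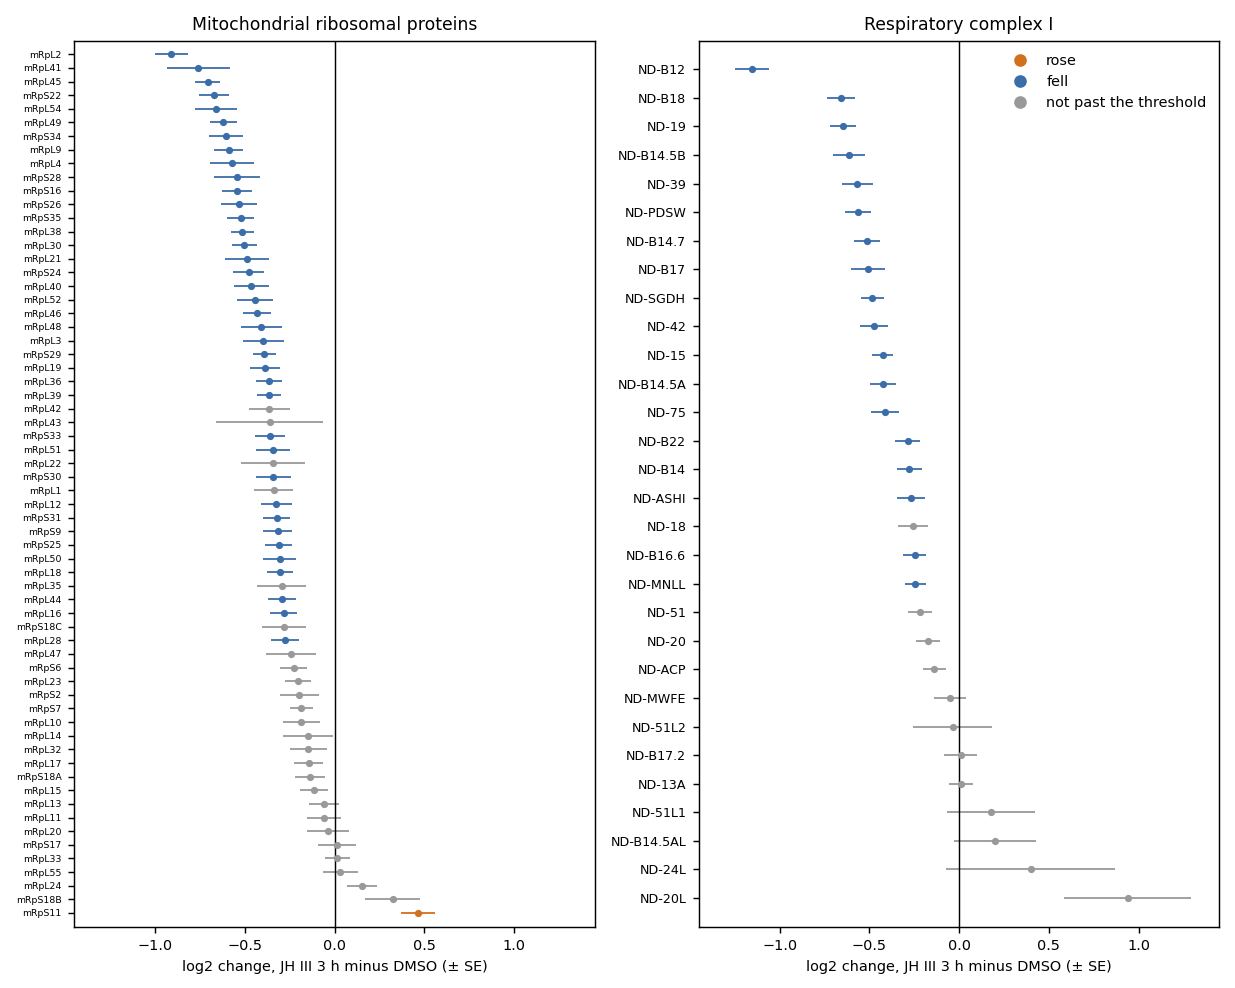
log2 change at 3 h with its SE for the 64 mitochondrial ribosomal protein genes (left) and the 30 complex I genes (right), ordered by change; blue points fell, orange rose and grey did not pass the threshold. Most points lie left of 0, from -0.91 for mRpL2 and -1.15 for ND-B12, with medians of -0.34 and -0.27.

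Cytosolic protein synthesis genes were mixed. In 38 translation factors 13 fell and 5 rose (median -0.14), and 4 of the falls and all 5 rises held without each array in turn. Of 14 subunits of eIF3, the scaffold of initiation on the small ribosomal subunit, 10 fell, with 12 estimates below DMSO and a median of -0.30. Most of these 10 lost the call without at least 1 of the DMSO or 3 h arrays. eIF3c gave 5306 and 5241 under DMSO and 3785 and 3819 after 3 h (log2 change -0.47, SE 0.06, adjusted p = 0.00153) and eIF3g1 7419.6 and 6991 under DMSO and 4901 and 5307 after 3 h (log2 change -0.50, SE 0.07, adjusted p = 0.00232). The guanine exchange subunit gene eIF2Bbeta fell by 0.49 (adjusted p = 0.00233). Opposite to these, pAbp rose together with its inhibitor Paip2, which gave 734 and 773 under DMSO and 1514 and 1644 after 3 h (log2 change 1.04, SE 0.09, adjusted p = 0.000482), and with eIF4G1, the scaffold that pAbp binds, at 930.0 and 999 under DMSO and 1696 and 1698 after 3 h (log2 change 0.80, SE 0.08, adjusted p = 0.000785). eIF5B rose by 0.68 (its other probe sets gave 0.56 (adjusted p = 0.00172) and 0.23 (adjusted p = 0.104)) and eIF5 by 0.58. The cap-binding eIF4E1 and the helicase eIF4A gave -0.02 and -0.01 (adjusted p = 0.912 and 0.981).

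Cytosolic ribosomal proteins fell in 2 of 33 (6.1%, beside 8.8% of all genes) and rose in none by limma (0 at an unadjusted p under 0.05). Their estimates lay below DMSO in 31. The median of -0.09 became 0.04 after cyclic loess, and with median centring 18 fell. RpL24-like, a factor of ribosome assembly rather than of the mature ribosome, gave 4203 and 4407 under DMSO and 2602 and 2616 after 3 h (log2 change -0.72, SE 0.06, adjusted p = 0.000316). In ribosome biogenesis 11 of 44 fell and 1 rose (median -0.18). After cyclic loess 9 fell and 2 rose (median -0.17). With median centring 19 fell, and 4 of the 11 falls held without each array in turn. The exosome subunit Ski6 gave 1161 and 1271 under DMSO and 711 and 669 after 3 h (log2 change -0.79, SE 0.09, adjusted p = 0.000785). Rrp4, another subunit, gave 2329 and 2261 under DMSO and 1565 and 1575 after 3 h (log2 change -0.54, SE 0.07, adjusted p = 0.00223). Rtc1 fell by 0.64 and Ns3, a nucleolar GTPase, by 0.67 (adjusted p = 0.0011 and 0.000865), while the other probe set of Ns3 gave -0.30 (adjusted p = 0.748). Of 28 aminoacyl-tRNA synthetases 4 fell (14.3%, beside 8.8% of all genes) and none rose by limma (1 at an unadjusted p under 0.05). None of the 4 passed without each array in turn, and 10 fell with median centring. Dph5, which modifies elongation factor eEF2, gave 7073 and 6876 under DMSO and 4274 and 4489 after 3 h (log2 change -0.67, SE 0.07, adjusted p = 0.000757).

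Heat shock and cytosolic chaperone genes fell in 10 of 20 (median -0.31) and rose in none by limma (0 at an unadjusted p under 0.05). Hsp68, an inducible Hsp70, gave 1516 and 1572 under DMSO and 665 and 713 after 3 h (log2 change -1.14, SE 0.09, adjusted p = 0.000208). Of the small heat shock proteins, Hsp26 gave 6801 and 6883 under DMSO and 3560.2 and 3748 after 3 h (log2 change -0.90, SE 0.07, adjusted p = 0.000295). Hsp27 gave 3205 and 3493 under DMSO and 1839.9 and 2133 after 3 h (log2 change -0.75, SE 0.09, adjusted p = 0.00136). The groups were clearly apart. The 8 subunits of the chaperonin CCT, which folds actin and tubulin, lay below DMSO, and 7 fell (median -0.39), among them CCT4 with 9815 and 9928 under DMSO and 7079 and 7401 after 3 h (log2 change -0.45, SE 0.06, adjusted p = 0.00132) and CCT1 with 10644 and 10887 under DMSO and 8256 and 8293 after 3 h (log2 change -0.38, SE 0.06, adjusted p = 0.0027). Most of the 7 CCT falls lost the call without at least 1 of the DMSO or 3 h arrays. The constitutive Hsc70-4 gave -0.13 and the heat shock factor gene Hsf 0.16 (adjusted p = 0.147 and 0.439). Of the 10 falls 5 passed without each array in turn. In vesicle traffic 5 of 15 fell and 1 rose. The coatomer gene epsilonCOP gave 3213 and 3443 under DMSO and 1821 and 2163 after 3 h (log2 change -0.74, SE 0.09, adjusted p = 0.00181) and alphaCOP 3194 and 3493 under DMSO and 2217 and 2133 after 3 h (log2 change -0.61, SE 0.08, adjusted p = 0.00233), and deltaCOP and Sec13 fell by 0.51 and 0.57. Proteasome genes gave 1 rise and 4 falls among 31, or 3.2% and 12.9%, beside 9.91% and 8.8% of all genes. Their median of -0.04 became 0.05 after cyclic loess, where 5 rose and 2 fell, while 13 fell and 0 rose with median centring. Genes of folding in the endoplasmic reticulum gave 4 rises and 3 falls among 23, or 17.4% and 13.0% (0 and 5 with median centring). Every call of the proteasome and folding lists was lost without at least 1 of the 4 arrays.

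Of 38 autophagy and lysosome genes 9 rose and 1 fell (6 and 4 with median centring), and 5 of the rises held without each array in turn, while the median of 0.02 was -0.14 with median centring and -0.04 after cyclic loess. Besides Atg10, lt, the Vps41 homologue that tethers vesicles to the lysosome, gave 347 and 339.7 under DMSO and 817 and 1028 after 3 h (log2 change 1.35, SE 0.13, adjusted p = 0.000482). Atg8a, which coats autophagosomes, gave 5190.5 and 5057 under DMSO and 7504 and 7309.8 after 3 h (log2 change 0.53, SE 0.06, adjusted p = 0.0012), and Lamp1 of the lysosomal membrane 6044 and 5517 under DMSO and 9198 and 9759 after 3 h (log2 change 0.71, SE 0.10, adjusted p = 0.00153). Atg13 of the complex that starts autophagy rose by 0.53 (adjusted p = 0.00223), and by its second probe set 0.43 (adjusted p = 0.0241). The kinase gene Atg1 gave 0.26 (adjusted p = 0.363). Vha26, a subunit of the proton pump that acidifies lysosomes, gave 7944 and 7739 under DMSO and 12554 and 13231 after 3 h (log2 change 0.72, SE 0.07, adjusted p = 0.000544). In its list of 22 pump genes 1 further gene rose and 1 fell (1 rise and 3 falls in all with median centring), and the median of 0.08 became -0.08 with median centring. Rises were 9.1% and falls 4.5% of the pump list, beside 9.91% and 8.8% of all genes.

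Lipid and sterol genes rose in 4 of 27 (14.8%, beside 9.91% of all genes) and fell in none by limma (1 at an unadjusted p under 0.05). Their median of 0.12 was -0.04 with median centring. FASN1, fatty acid synthase, gave 2747 and 2677 under DMSO and 4318 and 3808 after 3 h (log2 change 0.58, SE 0.07, adjusted p = 0.00123), Acsl, which activates fatty acids, 572 and 592 under DMSO and 987 and 906 after 3 h (log2 change 0.68, SE 0.10, adjusted p = 0.00319), and Lsd-2, a perilipin of lipid droplets, 867 and 837 under DMSO and 1355 and 1415 after 3 h (log2 change 0.69, SE 0.09, adjusted p = 0.00124). SREBP, the factor that drives lipid synthesis genes, was at 1786 and 1866 under DMSO and 2176 and 2360.1 after 3 h and just missed the threshold (log2 change 0.31, SE 0.10, adjusted p = 0.0563). In cytochrome P450 genes 4 of 28 rose, or 14.3%, beside 9.91% of all genes, and 2 rose with median centring. By limma none fell (0 at an unadjusted p under 0.05). The median was 0.10, or -0.06 with median centring. Cyp6a8 and Cyp4e2 rose by 0.63 and 0.61 (adjusted p = 0.00149 and 0.00287). Glutathione and UDP transferases gave 6 rises and 2 falls among 36, or 16.7% and 5.56%, beside 9.91% and 8.8% of all genes. With median centring they gave 3 and 8. GstE3 gave 456 and 383 under DMSO and 776 and 796 after 3 h (log2 change 0.87, SE 0.13, adjusted p = 0.00236), and GstD3 and GstD7 rose by 0.62 and 0.65, against the fall of GstE13 given above. Members of 1 enzyme family thus moved in opposite directions. Probe sets of such gene clusters may share sequence with neighbouring copies. In the genes of oxidative stress and metal handling 5 of 18 fell and 3 rose, and 2 of these falls and 1 rise held without each array in turn. Trxr1, thioredoxin reductase, gave 6041 and 6331 under DMSO and 4045 and 4058 after 3 h (log2 change -0.61, SE 0.06, adjusted p = 0.000819), the iron regulator gene Irp-1A fell by 0.53 (adjusted p = 0.00257; its other probe set gave -0.21 (adjusted p = 0.57)), and the metal transporter gene Mvl rose by 0.88 (adjusted p = 0.00367). The remaining lists are to be read beside the 9.91% of all genes that rose and 8.8% that fell. Of 11 nuclear receptors 2 rose, Hr39 and Hnf4, which the ecdysone and fat body lists also count. Toll and Imd immune genes gave 2 rises and 1 fall among 20, and the same gene, Diap2, was the 1 fall among 14 apoptosis regulators. The Hippo pathway gave 1 rise among 13 genes, and amino acid transporters 1 rise and 1 fall among 9. None of these calls held without each array in turn, and with median centring the Toll and Imd genes gave 1 rise and 3 falls. Of the tested markers of other cell types, topi among 7 germline genes and srp and Hnf4 among 8 fat body genes rose (for Hnf4 adjusted p up to 0.289 when 1 of 3 arrays was left out in turn, and 0.155 with median centring). By limma none of the 5 muscle, 2 neuronal and 2 glial genes passed the threshold (0 at an unadjusted p under 0.05).

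The direction of change went with the length of the gene. Genomic lengths from RefSeq were found for 6838 of the 6865 genes, 99.6%. The median was 6.61 kb for genes that rose, 1.64 kb for those that fell and 2.61 kb for the rest. In the longest quintile of genes, over 7.2 kb, 22.5% rose and 1.24% fell, against 3.87% and 15.3% in the shortest quintile, under 1.3 kb. The split held within every quintile of signal: among the brightest genes 28.1% of the longer and 4.89% of the shorter rose, and 12.2% and 34.0% fell. Across genes, which are not independent replicates, Spearman's rho of length with change was 0.345 (n = 6838), and it lay between 0.302 and 0.327 for each pair of a 3 h and a DMSO array. Between replicates it was -0.040 for DMSO and -0.045 for 3 h. It was 0.308 after cyclic loess.

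The gene lists above differ in length in the same way. The median length was 0.9 kb for mitochondrial ribosomal proteins and 1.1 kb for complex I, against 8.9 kb for the insulin and TOR pathway, 14.2 kb for matrix genes and 18.5 kb for the protein kinase C, calcium and G protein list. By signal, falls made up 26.0% of the brightest quintile of genes and 0.66% of the dimmest, and rises 13.5% and 2.11%, so the share of calls of either kind was higher among brighter genes. The part of length and signal in the changes of single lists was not tested, and neither was that of the 3' to 5' ratios given above.

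**Figure D4:**
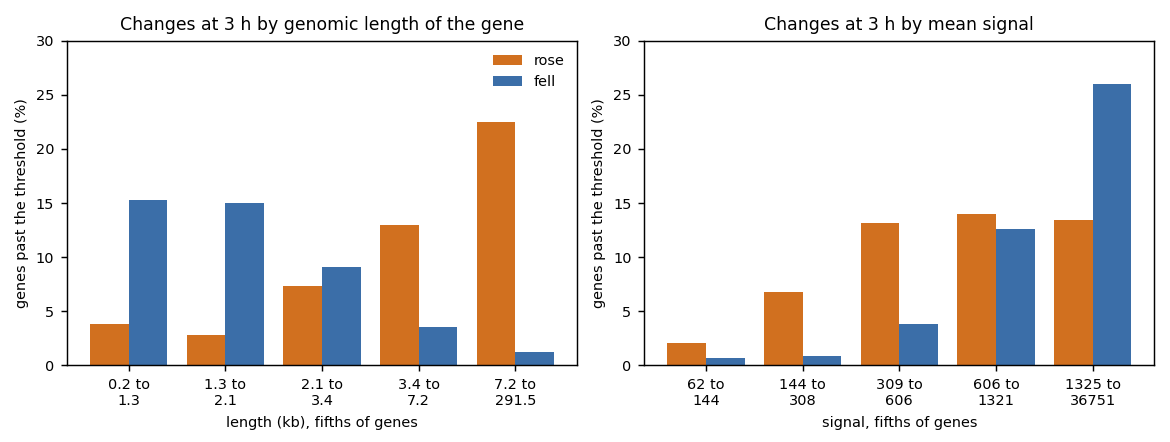
Share of genes (%) that rose (orange) and fell (blue) at 3 h in quintiles of genomic length in kb (left) and quintiles of mean signal (right), with the range of each quintile under its bars. Rises grow from 3.87% to 22.5% from the shortest to the longest genes while falls drop from 15.3% to 1.24%, and falls climb to 26.0% with signal.

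The 3 h arrays were also set against those of 6 h and 12 h. Between 3 h and 6 h 5 of the 8380 probe sets differed (0.0597%). E(spl)mbeta-HLH was the strongest: after 553 and 601 under DMSO and 244 and 239.9 at 3 h it reached 807 and 968 at 6 h, and the 3 h level was lower by 1.77 on the log2 scale (adjusted p = 0.00161). The other 4 were named after their values were seen. Oda, the antizyme that restrains polyamine synthesis, went from 2284 and 2102 to 3913 and 3929 and was at 1994 on the readable 6 h array, and aqz from 1693 and 1614 to 3227 and 3763 and then 1750 on that array (3 h above 6 h by 0.97 and 0.98, adjusted p = 0.0155 and 0.0313). Both were near their DMSO signals on that array. Hsp26 fell further by 6 h, to 2157 on the readable array (3 h above it by 0.75, adjusted p = 0.0306), and GstE1, near DMSO at 3 h with 4143 and 4223, rose to 6261 and 6139 (a difference of -0.56, adjusted p = 0.0306).

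Between 3 h and 12 h 1383 probe sets differed (16.5%). Of the 888 rises 469 lay above their 12 h level, and of the 684 falls 354 lay below it. Both sets were chosen on the 3 h arrays that this comparison uses, which favours such differences. Chosen on their 3 h values, the rises had median sizes of 0.66, 0.54 and 0.22 at 3, 6 and 12 h and the falls 0.46, 0.37 and 0.13. The later comparisons use the same DMSO arrays, so the values stand side by side with no test between them. Spearman's rho of length with change was 0.352 at 6 h and 0.030 at 12 h. The mitochondrial ribosomal protein list had medians of -0.41 at 6 h and 0.03 at 12 h, matrix genes 0.36 and -0.07, and the ERK and JNK list 0.34 and 0.02.

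Single genes followed several courses. Hml was at 3815 and 3919 at 3 h. Its 6 h arrays gave 3927 and 3901 and its 12 h arrays 2141 and 2216, close to DMSO (3 h minus 12 h 0.82, SE 0.06, adjusted p = 9.00e-05). E2f1 was at 1176 and 1274, then 801 and 755, then 426 and 563 (3 h minus 12 h 1.28, SE 0.13, adjusted p = 0.000396). LanA was at 2332 and 1964 at 12 h (3 h minus 12 h 0.62, SE 0.09, adjusted p = 0.00344). At 12 h Hml and LanA were close to their DMSO signals and E2f1 was below its own on both arrays. pAbp was still at 11434 and 12396 at 12 h, below its 3 h level (3 h minus 12 h 0.44, SE 0.08, adjusted p = 0.0063), and sty at 7561 and 7118 (3 h minus 12 h 0.50, SE 0.08, adjusted p = 0.00443). Both stayed above the DMSO arrays. PCB recovered from 511 and 401 at 3 h to 1112 and 1756 at 12 h (3 h minus 12 h -1.58, SE 0.19, adjusted p = 0.000885). ND-B12 reached 5765 and 5738, above both DMSO arrays (3 h minus 12 h -1.82, SE 0.10, adjusted p = 2.13e-05). Hsp68 reached 1408 and 1305 (3 h minus 12 h -0.95, SE 0.09, adjusted p = 0.000234). JhI-26 was at 1123 on the readable array at 6 h and 696 and 705 at 12 h (3 h minus 12 h 0.39, SE 0.10, adjusted p = 0.0303), and Kr-h1 at 251 on the readable array and 101 and 157 (3 h minus 12 h -0.10, SE 0.27, adjusted p = 0.834). br was at 141 on the readable array and then 89.2 and 108 (3 h minus 12 h 0.72, SE 0.25, adjusted p = 0.0922).

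**Figure D5:**
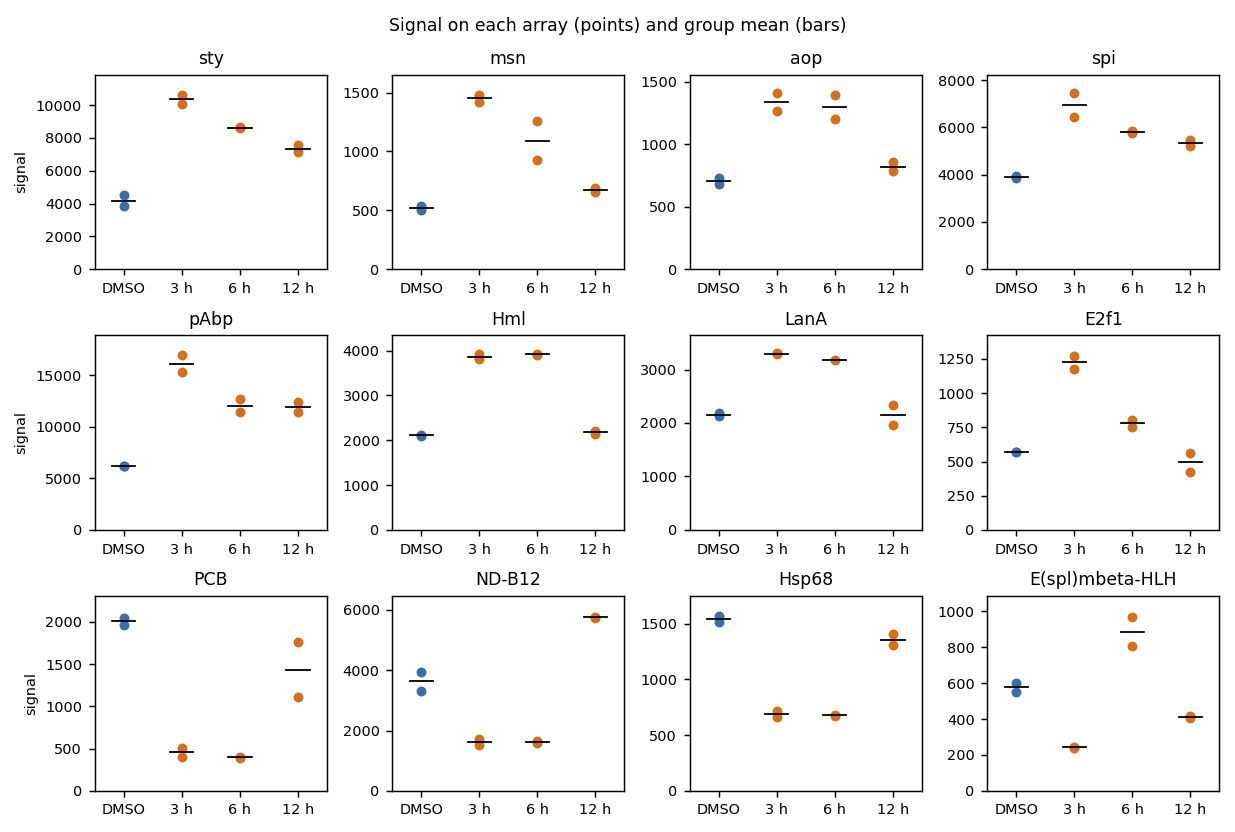
Signal on each array (points) and the group mean (bars) for 12 genes under DMSO (blue) and after 3, 6 and 12 h of JH III (orange); each panel has its own axis from 0, and 6 h shows 1 point where the second array was unreadable. Hml and LanA lie near DMSO at 12 h, pAbp and sty lie above it, and ND-B12 goes from 1711 and 1514 at 3 h to 5765 and 5738 at 12 h.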

How the data were processed

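RNA of L57 cells was measured on 8 one-colour Affymetrix arrays, 2 per group. The deposited values are MAS5 signal intensities on a linear scale, 1 per probe set, made by the authors and named as MAS5 per the submitters' processing notes; the version is not given in the sources used here. Of 13966 probe sets that are not array controls, 12442 carry 1 gene symbol, 327 several and 1197 none, and 12393 were matched to RefSeq genes (Drosophila melanogaster Release 6), which gave symbols and gene lengths. Replicate 2 of the 6 h group holds unreadable stretches, and its 3151 probe sets there were treated as missing, which left 2611 of the tested probe sets with 1 array at 6 h.

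From the deposited intensity log2(signal + 25.0) was taken. Probe sets with a mean below the 40th percentile (a signal of 61.5; 5586 probe sets) were left out, and 8380 were fitted with limma 3.58.1 in R 4.3.3, as 4 group means with a variance trend. P-values were adjusted by Benjamini-Hochberg over the 8380 and called at 0.05. All adjusted p-values are from this limma test. Deviations of arrays with the same replicate number correlated between -0.05 and 0.07, so the numbers were not taken to pair the arrays. Genes in lists were counted by their brightest probe set.

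Named genes were the 12 largest rises and falls among probe sets with 1 symbol and no overlap of the groups, up to 4 rises and 4 falls of each list, the 12 rises and falls with the smallest p among the rest, all measured members of the juvenile hormone reception list, EcR, and genes that stand for a step of a pathway, these last chosen with their values seen. Members and lists were chosen with earlier results of these data known. Alternatives were median centring, cyclic loess, quantile normalization, constants of 10 and 100, other filters, no variance trend, a replicate block, fewer arrays and, chosen after seeing the data, the probe sets readable on all 8 arrays and every probe set of the list members.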

Additional observations from a re-analysis of the deposited data

Results flagged for a closer look

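The level at 3 h differed from that at 12 h in 1383 probe sets and from that at 6 h in 5, each tested as a contrast of the same limma fit. Both contrasts leave out the DMSO arrays but use the same 3 h arrays by which the 24 genes below were chosen. That choice favours differences in the direction of the call, so these differences are no independent support for the changes against DMSO. Among the 24 genes with the largest changes against DMSO, 5 of the rises lay higher at 3 h than at 12 h: on the log2 scale lncRNA:CR42862 by 1.16, scrib by 1.41, topi by 1.23, CG2519 by 1.40 and bun by 0.90. Of the falls, 8 were lower at 3 h than at 12 h, with differences of -1.58 for PCB, -1.78 for CG11368, -1.36 for CG10205, -1.21 for Pex5, -0.83 for CG5254, -0.93 for GstE13, -0.71 for E(spl)mbeta-HLH and -1.82 for ND-B12. E(spl)mbeta-HLH was also lower at 3 h than at 6 h, with a difference of -1.77.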

How the results depend on the processing

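The 1572 calls stayed within 1.5 times of that number under most settings: 1455 with cyclic loess, 1420 with quantile normalization, 1551 and 1607 with constants of 10 and 100, 1255 with no filter, 1651 with the filter at the 60th percentile, 1775 on the 4 arrays alone, 1548 without the partly unreadable 6 h array and 1284 counted by gene. Median centring gave 507 rises and 1413 falls. Without the variance trend there were 875 calls (590 rises and 285 falls). On the probe sets readable on all 8 arrays, chosen after seeing the data, fewer were tested and 942 were called (533 and 409). Leaving out 1 of the 4 arrays gave 581 to 798 calls, 354 to 473 rises and 227 to 351 falls, the fewest without DMSO replicate 2; the lone array left is then assumed to vary like the other groups. The replicate numbers were not taken to pair the arrays, and with the replicate block 1349 were called (770 rises and 579 falls). No named probe set with a call changed direction. Of 252 named probe sets past the threshold 119 passed under every alternative, and 123 in all 4 fits without 1 array. Of 46 list medians 13 changed sign with median centring and 14 under some other setting. More of them moved beyond the spread of the list median between replicates. That held for 43 with median centring, 15 with cyclic loess, 14 with quantile normalization and 18 on the probe sets readable on all 8 arrays. The 2 arrays per group limit the precision of every value.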
